A study of Drosophila melanogaster with 3 samples.

Results

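This account describes neuropeptide receptor genes in AKHR+ neurons of the fly brain. A list of 37 receptor genes was matched by FlyBase identifier to the genes with a deposited value, and 11 of them had one, among 11922 gene identifiers in all. The 11 were SPR, Dh44-R1, Proc-R, sNPF-R, CrzR, CCKLR-17D3, CCKLR-17D1, Lkr, ETHR, rk and Lgr3. Not analysed here were the other 26, namely NPFR, AstA-R1, AstA-R2, AstC-R1, AstC-R2, CCHa1-R, CCHa2-R, CCAP-R, CapaR, Dh31-R, Dh44-R2, FMRFaR, MsR1, MsR2, Pdfr, PK1-R, PK2-R1, PK2-R2, RYa-R, SIFaR, TkR86C, TkR99D, Lgr1, Lgr4, CNMaR and TrissinR. Among these are the main receptors of several peptides known for their part in feeding, so the account covers only part of the peptide inputs that these neurons could receive.

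Values of 3 libraries, all of a single group, were analysed here. Flies carried nSyb-AD-AKHR-BD-GAL4 and UAS-mCD8gfp, a split driver that labels cells using both the pan-neuronal nSyb and the AKHR promoter, and were 5 days old on normal food. GFP-positive cells were drawn by pipette from dissected brains, and sequencing libraries were made from their amplified cDNA. The labels name each library as an AKHR neuron but also speak of pooling, so each is called a library here and numbered as in its label. Values are FPKM, that is fragments scaled by exon length and by the mapped total, which allow levels to be compared between genes of a library. There was no second diet, genotype or starved group, so levels, their spread and their order are what could be described. In material that may hold more than 1 cell, fewer cells with a transcript and less transcript per cell cannot be told apart.

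Neuropeptides are short signalling peptides, cut from larger precursors and released from neurons or gland cells. They act mostly on G protein-coupled receptors, which pass the signal on through trimeric G proteins to cyclic AMP, calcium and protein kinases. In flies such peptides carry hunger, satiety, stress, water balance and mating state to brain circuits. Adipokinetic hormone, the hunger hormone that AKHR+ neurons sense, is itself a ligand of a receptor in this class. Which other receptors share a neuron with AkhR therefore bears on which other internal states it could read.

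The libraries differed in how many genes had a value. At FPKM of at least 1, used here as detection, 36.8%, 50.7% and 47.2% of the gene identifiers were detected in libraries 1, 2 and 3. The estimated depth was 6620000, 6240000 and 6500000 fragments. Every library held the neuronal markers brp, elav, Syx1A and Syt1 (summed FPKM from 584 to 813), and nSyb is not analysed here. Of 5 glial markers 4 were detected in every library (summed FPKM from 1132 to 1174, none at 0). All 5 photoreceptor markers were detected in every library (from 2742 to 7979), as were 4 of 5 fat body markers (from 20173 to 32892, Fbp1 at 0 throughout). Of 3 octopaminergic markers, Vmat was detected in every library and Tdc2 and Tbh were listed at 0 in library 1 (summed FPKM from 91.8 to 154). Transcripts of other cell types were thus present in all 3 libraries, and their part in any receptor value below was not tested. An exact 0 need not mean absence, since 8, 8 and 6 of 84 ribosomal protein gene identifiers (symbols beginning RpL or RpS) were also listed at 0 in libraries 1, 2 and 3. Receptors at 0 are therefore called listed at 0, and no mean level is given for them in the text.

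Of the 11 receptors, only SPR was detected in all 3 libraries, and Lgr3 was listed at 0 in all. Detection in all 3 libraries held for 1 of 11 receptors (9.09%), against 31.1% of all gene identifiers. Of the rest, 6 were detected in 2 libraries and 3 in 1 library, against 1760 and 1414 of the 11922 gene identifiers. The receptors detected were 5 of 11 in library 1 (SPR, Dh44-R1, sNPF-R, CrzR and rk), 7 of 11 in library 2 (SPR, Proc-R, CCKLR-17D3, CrzR, CCKLR-17D1, Lkr and ETHR) and 6 of 11 in library 3 (SPR, Dh44-R1, Proc-R, sNPF-R, Lkr and CCKLR-17D1). Over all gene identifiers the shares detected were lower, at 36.8%, 50.7% and 47.2%, and the difference was not tested. Library 1, with the fewest genes detected, also had the fewest receptors. The count of 1 rose at lower thresholds and when fewer libraries had to pass. It was 3 at FPKM of at least 0.5 (SPR, sNPF-R and rk) and 4 for any value above 0 (with Proc-R added), which held for 36.1% of all gene identifiers. It became 4 without library 1, 3 without library 2 and 2 without library 3. Leaving out a library relaxes the requirement, so these counts could only stay or rise.

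**Figure D1:**
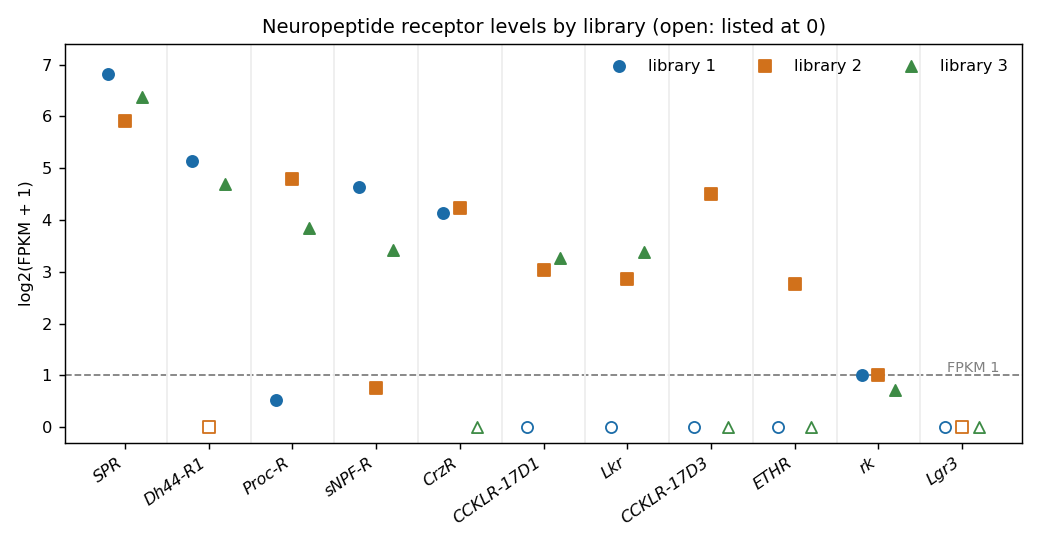
Level of each of the 11 receptor genes as log2(FPKM + 1), with 1 point per library and genes in order of their mean on this scale, in which a listed 0 counts as 0. Open points are values listed at 0 and the dashed line marks FPKM 1. SPR lies above every other receptor in each library, and 7 genes have at least 1 open point.

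SPR had the highest level of the 11 receptors in every library. It encodes the sex peptide receptor, through which sex peptide changes the behaviour of mated females and which also responds to myoinhibitory peptides. It lies on chromosome X from 5446656 to 5494012 on the plus strand (FBgn0029768, BDGP6). Its FPKM was 112, 58.98 and 82.2 in libraries 1, 2 and 3 (mean 84.5 ± 26.8, SD, n = 3), resting on about 2298, 1136 and 1649 fragments. The 95% Poisson intervals, 2205 to 2394, 1071 to 1204 and 1570 to 1731 fragments, did not overlap, so the estimated fragments differed beyond counting error. Here and below, counting error is that of sequenced fragments, PCR copies included. It does not cover amplification or the sampling of molecules before it. The highest library was 1.91 times the lowest, against a median of 3.15 times over the 3709 gene identifiers detected in all libraries. SPR exceeded the next receptor 3.28-fold in library 1 (Dh44-R1), 2.21-fold in library 2 (Proc-R) and 3.31-fold in library 3 (Dh44-R1). It made up 59.7%, 40.3% and 55.2% of the summed FPKM of the 11 receptors. Among all gene identifiers, those listed at 0 included, it stood at the 92.3, 88.3 and 90.5 percentile. Among those above 0 it stood at the 81.4, 78.0 and 81.3 percentile. Of its 3730 exonic bases, 999 (26.8%) overlap exons of frma on the opposite strand. A SMART-type library does not mark strand, so reads from those bases cannot be assigned to SPR alone, and frma is not analysed here.

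The order below SPR changed from library to library. Dh44-R1 was second in libraries 1 and 3 and listed at 0 in library 2, where Proc-R was second. The placement of the receptors among all genes with a value shows that the others lay mostly below the middle. Only Dh44-R1 in libraries 1 and 3, Proc-R in library 2 and CCKLR-17D3 in library 2 joined SPR above the median of the gene identifiers above 0, which was an FPKM of 30.99, 21.7 and 23.4. Those values were 1.11 and 1.059 times the median for Dh44-R1, 1.23 times for Proc-R and 1.002 times for CCKLR-17D3.

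**Figure D2:**
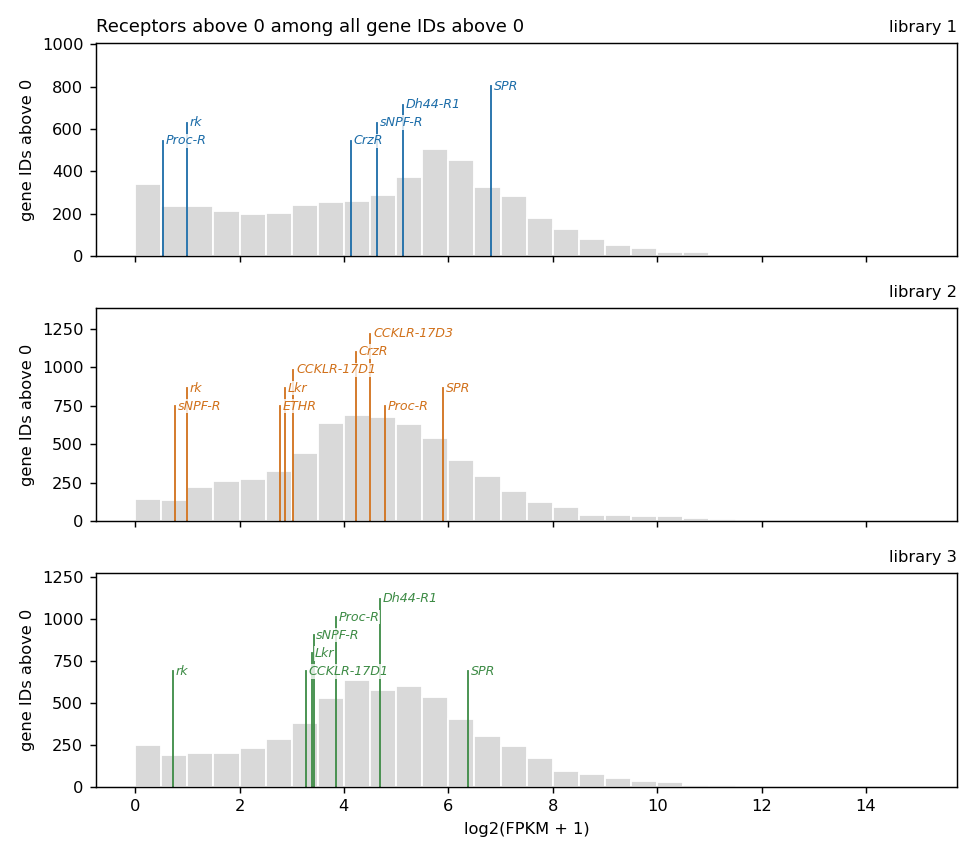
Grey bars count gene identifiers above 0 by level, log2(FPKM + 1) in steps of 0.5, in each library. Coloured lines mark the receptors above 0, of which there were 6, 9 and 7 in libraries 1, 2 and 3, and SPR is the rightmost line in each.

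Of the receptors of peptides tied to feeding and energy state, sNPF-R, Lkr, CCKLR-17D1 and CCKLR-17D3 had values. The gene sNPF-R encodes the receptor of short neuropeptide F, a peptide that promotes feeding (FBgn0036934, chromosome 3L, 20058511 to 20089007, minus strand). Its FPKM was 23.8, 0.694 and 9.69 in libraries 1, 2 and 3 (mean 11.4 ± 11.7, SD, n = 3). The value in library 2 rested on about 16.5 fragments (95% Poisson interval 9.51 to 26.6) and that in library 1 on about 601 (554 to 651). It was thus above 0 throughout, but low in library 2 beyond counting error, and its SD was as large as its mean. Lkr encodes the leucokinin receptor, which acts in water balance, meal size and the response to starvation (FBgn0035610, chromosome 3L, 5512421 to 5529341, minus strand). It was listed at 0 in library 1 and had an FPKM of 6.28 in library 2 and 9.49 in library 3. These values rested on about 114.8 and 181 fragments, with intervals from 94.7 to 138 and from 155 to 209 that did not overlap.

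CCKLR-17D1 and CCKLR-17D3 encode receptors of drosulfakinin, a satiety peptide related to vertebrate cholecystokinin. They are neighbouring paralogs on the minus strand of chromosome X, from 18707494 to 18726572 (FBgn0259231) and from 18764483 to 18774027 (FBgn0030954), with 37910 bases between them. CCKLR-17D1 was listed at 0 in library 1 and had an FPKM of 7.18 and 8.66 in libraries 2 and 3. The intervals in libraries 2 and 3, 121 to 169 and 154 to 208 fragments, overlapped. CCKLR-17D3 was at 21.7 in library 2, from about 303 fragments, and was listed at 0 in libraries 1 and 3. In library 2 the order was therefore CCKLR-17D3 over CCKLR-17D1, in library 3 the reverse, and in library 1 both were listed at 0. The difference, CCKLR-17D1 minus CCKLR-17D3 on the log2(FPKM + 1) scale, was -1.47 in library 2 and 3.27 in library 3, with CCKLR-17D3 entering the second of these as a listed 0. With listed 0s counted as 0, the mean over 3 libraries was 0.60 ± 2.43 (SD), and -0.74 without library 3. An exact sign-flip permutation test (two-sided) gave p = 1, but with 3 libraries it cannot go below 0.25, so it says nothing on the order of the pair. It was the only pair of related receptors, of 10 listed, in which both genes could be analysed.

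Dh44-R1 and CrzR, receptors of a diuretic and a stress-related peptide, were each seen in 2 of 3 libraries. Dh44-R1 encodes a receptor of diuretic hormone 44, a peptide of the corticotropin-releasing factor family that signals through cyclic AMP (FBgn0033932, chromosome 2R, 14378097 to 14385359, plus strand). Its FPKM was 34.3 in library 1 and 24.8 in library 3, from about 561 and 399 fragments, and it was listed at 0 in library 2. A value from 3 fragments in library 2 would have been an FPKM of 0.194. CrzR encodes the receptor of corazonin, a stress-related peptide, and is a relative of the adipokinetic hormone receptor (FBgn0036278, chromosome 3L, 12339116 to 12351544, minus strand). It was at 16.5 and 17.8 in libraries 1 and 2, where the intervals of 317 to 392 and 324 to 400 fragments overlapped. In library 3 it was listed at 0, with 3 fragments corresponding to an FPKM of 0.143. Of the libraries in which each gene was seen, those of CrzR thus agreed within counting error, while those of Dh44-R1 did not (intervals of 516 to 610 fragments in library 1 and 361 to 440 in library 3).

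Proc-R and ETHR, receptors of a muscle-active and a moulting peptide, differed widely between libraries. Proc-R encodes the receptor of proctolin, a peptide best known for exciting muscle (FBgn0029723, chromosome X, 4707916 to 4729487, plus strand). Its FPKM was 0.447, 26.7 and 13.4 in libraries 1, 2 and 3 (mean 13.5 ± 13.1, SD, n = 3). About 8.83 fragments (4.004 to 16.9) lay behind the lowest value and about 497 (454 to 542) behind the highest. It was thus low in library 1, the library in which sNPF-R was highest. ETHR encodes the receptor of ecdysis-triggering hormone, which starts the moulting sequence and also acts in adult endocrine cells (FBgn0038874, chromosome 3R, 21247011 to 21265134, plus strand). It was at 5.83 in library 2, from about 115.2 fragments, and was listed at 0 in libraries 1 and 3.

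The leucine-rich repeat receptors rk and Lgr3 did not exceed an FPKM of 1.003 in any library. The gene rk encodes rickets, the receptor of the hormone bursicon, which hardens and darkens the cuticle after moulting (FBgn0003255, chromosome 2L, 13982743 to 14001248, minus strand). Its FPKM was 1.003, 0.9996 and 0.650 (mean 0.884 ± 0.203, SD, n = 3), from about 35.8, 33.6 and 22.8 fragments. The intervals, 25.0 to 49.6, 23.2 to 47.0 and 14.4 to 34.2 fragments, overlapped, so rk was low but did not differ between libraries beyond counting error. It counted as detected in library 1 but not in library 2, so its call rests on the threshold. Of its 5386 exonic bases, 527 overlap exons of NimC2 on the opposite strand. Lgr3 encodes the receptor through which the insulin-like peptide Ilp8 coordinates larval growth (FBgn0039354, chromosome 3R, 25665809 to 25677214, plus strand). It was listed at 0 in all 3 libraries, as were 39.5% of all gene identifiers. By the estimated depth, 3 fragments would have given it an FPKM of 0.151, 0.160 and 0.154, but a listed 0 does not place Lgr3 below these values. Of its 3005 exonic bases, 893 (29.7%) overlap exons of lncRNA:CR45225 on the opposite strand, which is not analysed here. Its exons also overlap those of CG4730 on the opposite strand over 143 bases, and CG4730 had an FPKM of 22.3, 0 and 0.513.

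**Figure D3:**
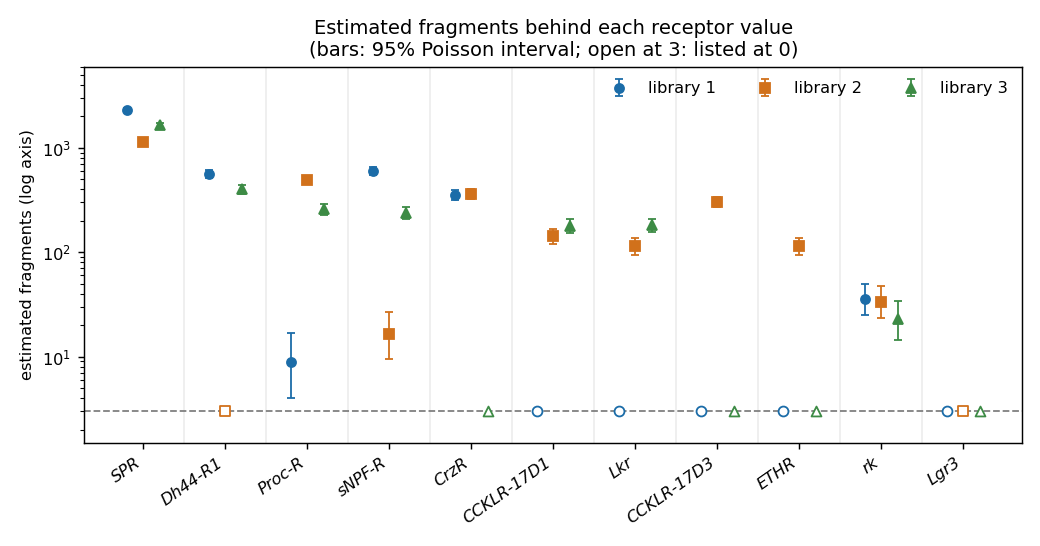
Estimated fragments behind each receptor value on a log axis, with 95% Poisson intervals that cover counting error only. Open points on the dashed line at 3 fragments stand for values listed at 0. The intervals of rk overlap in all 3 libraries, while those of SPR, Proc-R and sNPF-R do not.

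The swing between a clear value and a listed 0 was not rare among genes of like level. Of the 9 receptors whose highest library lay from FPKM 1 to under 50, 6 were listed at 0 in at least 1 library (66.7%), against 55.8% of the 4113 gene identifiers in that range. In the same range 0 of 9 receptors were detected in every library, against 32.5% of gene identifiers. SPR, the only receptor detected in every library, lies above the limit of 50 and is not among the 9. The gene identifiers were cut to the same range. These shares describe the list and were not tested. Across the 11 receptors, Spearman's correlation was 0.0430 for libraries 1 and 2, 0.659 for libraries 1 and 3 and 0.156 for libraries 2 and 3. On the log2(FPKM + 1) scale Pearson's r was 0.0834, 0.578 and 0.198 for the same pairs. The points share library and amplification, and with 11 genes these values are descriptions only. The median receptor had a log2(FPKM + 1) of 0.53, 2.86 and 3.27, against 0, 1.19 and 0.18 for the median of all gene identifiers.

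AkhR, the receptor gene whose promoter marked the cells, was detected in each library at an FPKM of 14.7, 1.90 and 2.52. SPR exceeded it 7.67-fold, 31.1-fold and 32.6-fold in libraries 1, 2 and 3. The receptors above AkhR numbered 4 of 11, 7 of 11 and 6 of 11. In library 1 these were SPR, Dh44-R1, sNPF-R and CrzR, and in libraries 2 and 3 every detected receptor stood above it. AkhR was thus below SPR and several other receptors in every library.

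The listed ligands of these receptors were then examined in the same libraries. For 6 of the 11 receptors a ligand gene had values, and receptor and ligand were both detected in all 3 libraries for 1 of them, SPR with Mip. Mip, which encodes myoinhibitory peptides, was at 65.4, 14.3 and 299.7, while sex peptide itself is not analysed here. The sNPF gene was at 179, 96.3 and 107, and was detected in library 2 too, where sNPF-R fell under FPKM 1. Crz, encoding corazonin, was at 58.2, 337 and 224, including library 3, where CrzR was listed at 0. Dsk, encoding drosulfakinin, was at 504, 418 and 59.5, and its highest library was the one in which both of its receptors were listed at 0. ETH was listed at 0 in every library, library 2 with its ETHR value included. The count of 1 became 2 at FPKM of at least 0.5 or without any single library, both of which relax the requirement. No ligand gene of Dh44-R1, Lkr, Proc-R, rk or Lgr3 is analysed here. Whether the ligand transcripts came from AKHR+ neurons was not tested.

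**Figure D4:**
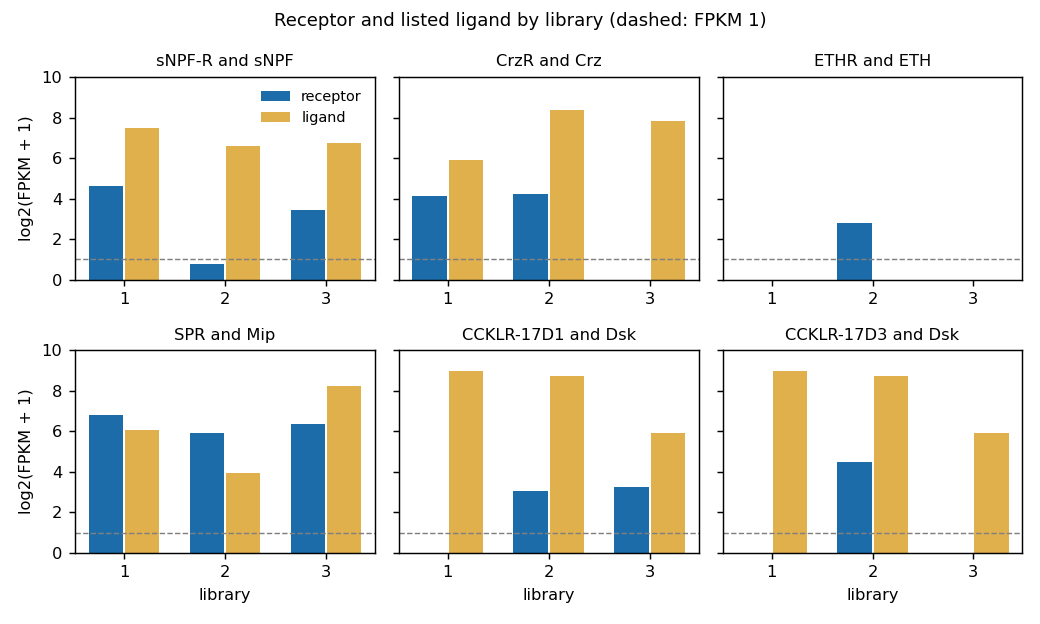
Receptor (blue) and listed ligand (yellow) as log2(FPKM + 1) in each library, for the 6 pairs with values for both genes. The dashed line marks FPKM 1. Only SPR and Mip exceed it together in all 3 libraries.

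The median of the listed genes that relay receptor signals was above that of the receptors in each library, although the levels of single genes overlapped. Of 26 listed G protein and effector genes, 20 had values and 15 of these were detected in all 3 libraries, against 31.1% of all gene identifiers. The other 5 (rut, Ac76E, Plc21C, Itpr and krz) were detected in 2 libraries each. The median member had an FPKM of 24.1, 35.7 and 35.01 in libraries 1, 2 and 3, where the median receptor had 0.447, 6.28 and 8.66. The most abundant were the G protein gamma subunits Ggamma1 (mean FPKM 1304 ± 327, SD, n = 3) and Ggamma30A (1260 ± 170), and the beta subunits Gbeta13F (375 ± 45.1) and Gbeta5 (181 ± 70.0). Gprk1, a kinase that acts on activated receptors, followed at 141 ± 29.7. Pka-R1, a regulatory subunit of the cyclic AMP-dependent kinase, was at 99.2 ± 42.8. Ggamma30A, norpA and Gbeta76C also serve phototransduction, and photoreceptor markers were detected in every library. The beta-arrestin gene krz, which helps to switch receptors off and is named here after its values were seen, was listed at 0 in library 1 and was at 1.93 and 30.5 in libraries 2 and 3. The genes for Galphaq, Galphas, Galphai, Galphao, Galphaf and CrebB are not analysed here.

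**Figure D5:**
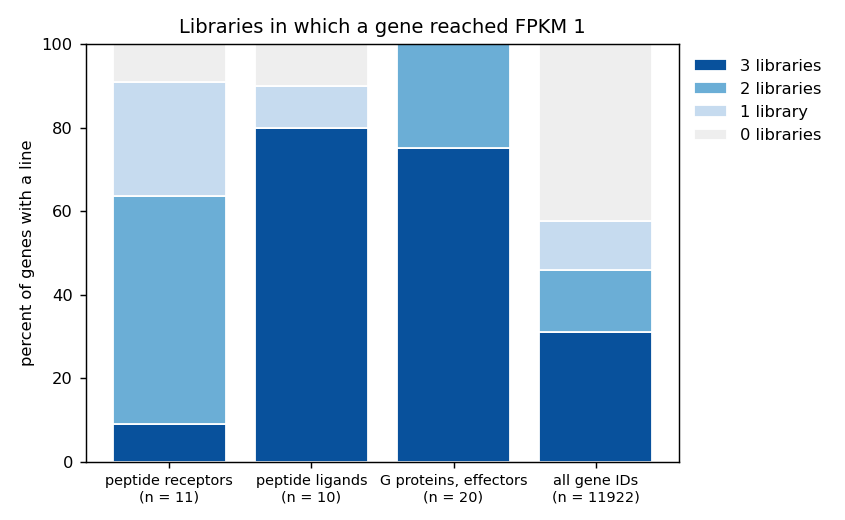
Percent of genes that reached FPKM 1 in 3, 2, 1 or 0 libraries, for receptors (11 genes), ligands (10), G protein and effector genes (20) and all gene identifiers (11922). Detection in all 3 libraries held for 1 receptor, 8 ligands and 15 G protein or effector genes.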

How the data were processed

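The paper describes individual AKHR+ cells as picked, amplified and sequenced, while the labels also speak of pooling. The paper's figure of lipoprotein receptor levels counts more cells than the 3 libraries analysed here. How those cells relate to the libraries is not given in the sources used here. The authors trimmed the reads, mapped them to the fly genome and deposited FPKM per gene for 3 libraries. HISAT is named in the submitters' processing notes. Its version, the quantifier, the genome build and the annotation are not given in the sources used here. No molecular identifiers are described, so PCR copies count as fragments. FPKM is not a count, and no count test was used.

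Lines with the same identifier (117 identifiers, 0 of them receptors) were averaged, giving 11922 identifiers from 12180 lines. Symbols were found for 11794. Positions and transcript lengths are from the Ensembl BDGP6.54 annotation which need not be the annotation used upstream. Library 3's values are headed with another sample number, and the label was followed.

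Depth was estimated from genes with 1 transcript, as the total that best placed FPKM times length on whole fragments (0.5 to 10 fragments, tolerance 0.1). It placed 66.5%, 46.0% and 56.7% of 194, 163 and 178 low values within the tolerance, and the total was chosen to suit these values. Fragments use the mean transcript length, and intervals (exact Poisson, 95%) and floors (3 fragments) cover counting error only. The search was also run on simulated data, which cannot show that the estimated depth is right for these libraries.

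Levels were analysed as log2(FPKM + 1), which understates differences of low genes. Members and lists were chosen with earlier results of these data known. By rule, every receptor, its ligands, AkhR and the 6 highest effector genes could be named. Of the effector genes with values, rut, Ac76E, Plc21C, Itpr, krz, norpA and Gbeta76C were also named, outside this rule. The labels do not say whether the libraries came from different flies, so the SD may be partly technical. Alternatives were other thresholds, a pseudocount of 0.1, a common sum of 1000000, summed repeated lines and leaving out each library. The count of values above 0 was added after the data were seen. Python 3.11.15, numpy 2.4.6, pandas 2.3.3, scipy 1.17.1 and matplotlib 3.10.9 were used.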

Additional observations from a re-analysis of the deposited data

How the results depend on the processing

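Of 95 alternative values for 17 results, 76 stayed within the spread or limits set, 18 moved and 1 reversed. Some of the 76 could not have moved, so the tally overstates stability. No receptor had repeated lines, so summing such lines left every receptor mean and the receptor count as they were. Spearman's correlation rests on ranks, which another pseudocount or rescaling does not change. Lgr3 was listed at 0 and stayed there under every setting. The receptors detected in all libraries (1) became 3 at FPKM of at least 0.5, 3 after rescaling to a common sum, 4 for any value above 0 (an alternative chosen after seeing the data) and 2 to 4 when each replicate was left out. Receptors detected together with a ligand (1) became 2 at FPKM of at least 0.5, 2 for any value above 0 and 2 without replicate 1, 2 or 3. Leaving out a replicate relaxes the requirement, since fewer libraries must pass. Both counts stayed at 1 at FPKM of at least 2 or 10. The difference between CCKLR-17D1 and CCKLR-17D3 ranged from -0.74 to 1.64 across leave-one-out fits and reversed without replicate 3 (-0.74), the only library in which CCKLR-17D1 was the higher. The mean Spearman correlation of 0.286 and Pearson correlation of 0.287 ranged from 0.0430 to 0.659 and from 0.0834 to 0.578, highest without replicate 2. Of single receptors, 5 means moved (listed 0s counted as 0), all on rescaling, which raised every gene alike within a library. The other means above 0 rose on rescaling too, but by less than their SD. That of sNPF-R went from an FPKM of 11.4 to 22.6 and that of Proc-R from 13.5 to 25.7. Staying within the spread therefore reflects a large SD over 3 libraries and does not show that a mean was stable. No paired analysis was possible because there is a single group. With 3 libraries the sign-flip test cannot reach 0.05. A listed 0 gives no upper limit on a receptor's level.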

Other observations

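Among the listed peptide genes, 5 had values while none of their listed receptors is analysed here (Dh31, Gpa2, Gpb5, Pdf and Tk). Pdf, which encodes the clock neuron peptide pigment-dispersing factor, had an FPKM of 937, 211 and 676 in libraries 1, 2 and 3, the highest mean of the 10 ligand genes with values (608 ± 368, SD, n = 3). Dh31, encoding diuretic hormone 31, was at 119, 128 and 62.7. Tk, encoding tachykinins, was at 53.4, 25.5 and 29.7. The glycoprotein hormone subunit Gpb5 was at 520.2, 123 and 103.6, while its partner Gpa2 was listed at 0 in libraries 1 and 2 and at 39.5 in library 3.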
